A study of Mus musculus with 13 samples.

Results

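The HoxD cluster on mouse chromosome 2 holds Evx2 and 9 Hoxd genes. H3K27me3 over this cluster was compared between mouse embryonic fibroblasts (MEFs) carrying either of 2 lysine-27-to-methionine (K27M) histone H3 mutants. The members were the H3K27me3 peaks that overlap chr2:74450000-74640000 (mm9). This window of 190 kb holds the cluster, from the Evx2 and Hoxd13 end to the Hoxd1 end. It is longer than the distance between the Evx2 and Hoxd1 promoters in a later assembly, so it also holds flanking sequence. It held 1 of the 1192 peaks of the H3.3K27M list and 1 of the 1053 peaks of the H3.1K27M list. The window came with earlier results of these data known, but no measured value entered the rule.

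The H3.3K27M cells stably expressed the mutant of H3.3, the histone form deposited throughout the cell cycle. The H3.1K27M cells stably expressed the mutant of H3.1, which is deposited mainly during DNA replication. Both mutants were delivered by lentivirus into MEFs grown with 10% serum, and the labels give no time after transduction and no embryo of origin. Mononucleosomes from formaldehyde-crosslinked cells were immunoprecipitated with an antibody against H3K27me3 and sequenced. The labels name 2 replicate samples per mutant, and give the same single peak list for both. Whether reads of both entered it is not stated, so no spread between replicates was available and no test was run. Cells with a K27R mutant were not analysed here. The labels name no H3K27me3 sample of the control cells labelled empty, so no comparison with unmutated cells could be made. The lists hold positions and widths without heights, and the depth behind a peak is unknown. Wider therefore means a longer called stretch, not more H3K27me3. The fibroblast label could not be checked against marker genes, since the lists name no genes.

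Hox genes encode homeodomain transcription factors that set position along the body axis and the limbs. In the mouse they lie in 4 clusters in which gene order matches the order of expression along the axis, a property called collinearity. Where a Hox gene is silent, the Polycomb repressive complex PRC2 covers its chromatin with H3K27me3, often as one broad domain over neighbouring genes. PRC2 binds first at CpG-rich sequence and spreads the mark outwards, and the K27M mutant inhibits PRC2. At HoxD, distal limb and genital buds use the Hoxd13 end and more anterior tissues use the Hoxd1 end.

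Gene order along increasing coordinates was taken from the RefSeq table of a later mouse assembly (GRCm38.p6), in which all 10 members were found. Evx2, an even-skipped-type homeobox gene, comes first and is transcribed on the minus strand, away from the Hoxd genes. It is followed by Hoxd13, Hoxd12 and Hoxd11, which pattern the digits and forearm, and by Hoxd10 and Hoxd9, which act in the lumbar spinal cord and the limb. Next come Hoxd8, a gene of the trunk, and Hoxd3 and Hoxd4, which pattern the neck vertebrae and hindbrain. The spans of Hoxd3 and Hoxd4 overlap in the table, as do those of Hoxd11 and Hoxd10. Hoxd3 precedes Hoxd4 here by its annotated start, so the order of this pair need not be that of their coding sequences. Hoxd1, known in the mouse for a role in pain-sensing neurons, closes the cluster. The 9 Hoxd genes all run on the plus strand. The flanking protein-coding genes are Lnpk before Evx2 and Mtx2 after Hoxd1. The table also lists 6 noncoding genes among the members, including the microRNA gene Mir10b. Its coordinates belong to another assembly than the peaks, so the members were not placed on the peaks one by one.

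The members' promoters are shown for their CpG content, with each CpG dinucleotide in capitals. Whether PRC2 binds at any of them was not examined here. Each is 300 bases, from 250 before to 50 after an annotated gene start, read 5′ to 3′ on the gene's strand (RefSeq, GRCm38.p6). The 4 shown are those of the first gene of the order, of the most CpG-rich and a most CpG-poor promoter, and of the last gene. They lie at chr2:74659508-74659807 on the minus strand for Evx2, and on the plus strand at chr2:74667975-74668274 for Hoxd13, chr2:74721728-74722027 for Hoxd4 and chr2:74762730-74763029 for Hoxd1, all in GRCm38.p6 and not in the build of the peaks.
Evx2: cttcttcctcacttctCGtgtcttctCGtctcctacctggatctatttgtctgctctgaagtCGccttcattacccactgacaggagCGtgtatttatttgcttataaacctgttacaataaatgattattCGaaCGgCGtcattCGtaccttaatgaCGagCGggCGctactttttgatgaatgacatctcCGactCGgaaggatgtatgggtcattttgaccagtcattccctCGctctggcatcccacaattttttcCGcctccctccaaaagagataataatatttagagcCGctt
Hoxd13: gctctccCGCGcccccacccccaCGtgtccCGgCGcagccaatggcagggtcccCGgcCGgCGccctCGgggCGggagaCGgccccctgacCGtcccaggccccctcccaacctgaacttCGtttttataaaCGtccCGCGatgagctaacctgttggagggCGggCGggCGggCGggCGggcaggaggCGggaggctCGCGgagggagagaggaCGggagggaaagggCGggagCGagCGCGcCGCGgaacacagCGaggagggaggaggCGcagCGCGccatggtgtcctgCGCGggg
Hoxd4: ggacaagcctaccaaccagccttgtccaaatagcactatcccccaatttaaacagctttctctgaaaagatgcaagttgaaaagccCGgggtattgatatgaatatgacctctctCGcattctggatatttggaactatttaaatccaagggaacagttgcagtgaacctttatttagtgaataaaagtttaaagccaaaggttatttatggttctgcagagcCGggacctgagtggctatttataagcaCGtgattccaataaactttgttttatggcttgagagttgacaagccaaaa
Hoxd1: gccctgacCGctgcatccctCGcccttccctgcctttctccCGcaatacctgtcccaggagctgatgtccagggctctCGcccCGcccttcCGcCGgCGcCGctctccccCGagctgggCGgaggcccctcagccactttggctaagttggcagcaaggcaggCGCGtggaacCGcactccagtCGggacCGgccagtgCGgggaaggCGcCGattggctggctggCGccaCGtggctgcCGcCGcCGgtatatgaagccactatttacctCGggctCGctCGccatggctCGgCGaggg

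CpG content differed widely between members, in no steady order along the cluster. The Hoxd13 promoter held 37 CpGs, and 94.4% of the 32851 promoters in the table held fewer. Hoxd1, at the other end of the cluster, held 29, and 87.1% of promoters held fewer. Rich promoters thus lay at both ends of the Hoxd genes. Evx2 held 16 CpGs at a G+C content of only 44.3%, which gave an observed-to-expected CpG ratio of 1.13, the highest of the members. Hoxd4 held 4 CpGs and a ratio of 0.34. Between these lay Hoxd10 with 22 CpGs, Hoxd9 and Hoxd3 with 20 each, Hoxd12 with 13 and Hoxd8 with 6. Hoxd11 is the only member with 2 annotated starts, of which the first in the order had 4 CpGs and the second 25. Over the 11 member promoters the median was 20, against 7 over all promoters (quartiles 3 and 20). Of the 11, 8 lay above the median of all, as did 15982 of the 32851 promoters.

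**Figure D1:**
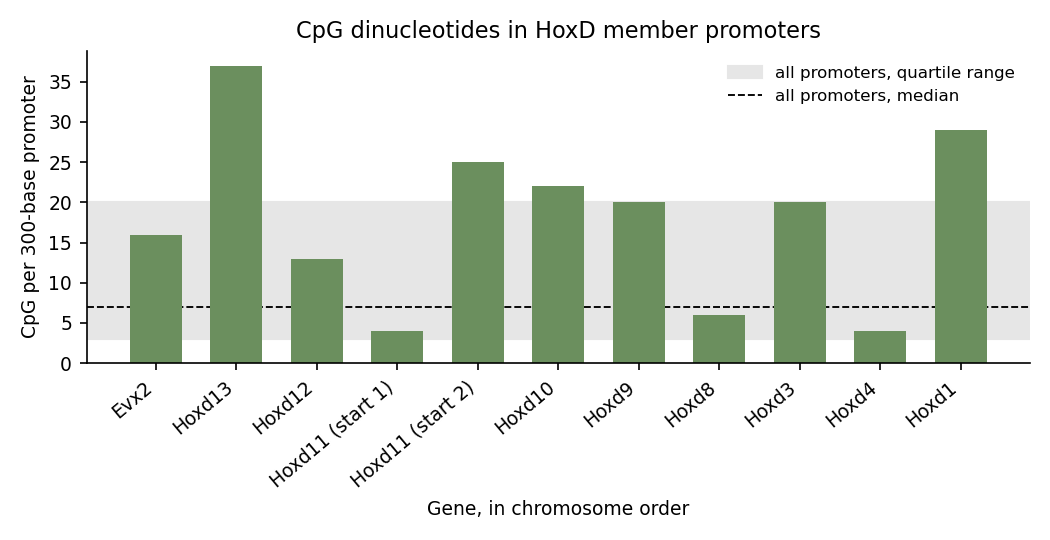
CpG dinucleotides per 300-base promoter (vertical axis) for the 11 annotated starts of the 10 HoxD genes in chromosome order (horizontal axis), 1 bar per start. The dashed line is the median of all promoters (7) and the grey band their quartile range (3 to 20). Hoxd13 (37) and Hoxd1 (29) stand highest, and the first Hoxd11 start and Hoxd4 (4 each) lowest.

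Short promoter motifs were searched on both strands in the same 300 bases. The letters CCAAT, which the factor NF-Y binds, occurred in 7 of the 11 member promoters, against 37.4% of all promoters. The members with it were Hoxd13, Hoxd12, Hoxd10, Hoxd8, Hoxd3, Hoxd4 and Hoxd1. The letters TATAAA, those of the TATA box, occurred in Evx2, Hoxd13 and Hoxd4, 3 of the 11 promoters, against 13.6% of all. Strand and distance from the start were not considered, so a match need not be a TATA box. The letters TAATTA, which many homeodomains bind, occurred in both Hoxd11 promoters and in no other member, against 5.29% of all. No match overlapped a match of another of the 3 motifs in any member promoter.

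Both mutants carried a single, unbroken, broad H3K27me3 domain at HoxD. In H3.3K27M cells the peak ran over chr2:74481601-74538599, a width of 57.0 kb. In H3.1K27M cells it ran over chr2:74484401-74553199, a width of 68.8 kb. Each peak overlapped the other, as did 70.3% of all H3.3K27M peaks and 81.2% of all H3.1K27M peaks. A shared region with 1 peak in each list was the usual case, at 97.1% of the 831 shared regions, so an unbroken call at HoxD is not unusual by number. It was less common among broad regions, as given below.

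The peaks divided the window into 5 stretches. The first 31.6 kb, on the Evx2 side, had no peak in either list. The next 2.8 kb, chr2:74481601-74484400, lay in the H3.3K27M peak alone. The following 54.2 kb, chr2:74484401-74538599, lay in both peaks and formed the core of the domain. The core was followed by 14.6 kb, chr2:74538600-74553199, that lay in the H3.1K27M peak alone. The last 86.8 kb, up to the Hoxd1 end of the window, had no peak in either list. In both mutants the called domain thus lay nearer to the Evx2 and Hoxd13 end of the window than to its Hoxd1 end. In H3.3K27M cells 31.6 kb of the window lay uncalled before the peak and 101 kb after it. In H3.1K27M cells these lengths were 34.4 kb and 86.8 kb. Peaks covered 30.0% of the window in H3.3K27M cells and 36.2% in H3.1K27M cells. These are shares of the window and not of the cluster. The window includes flanking sequence, and how much of the uncalled length lies outside the genes was not determined.

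**Figure D2:**
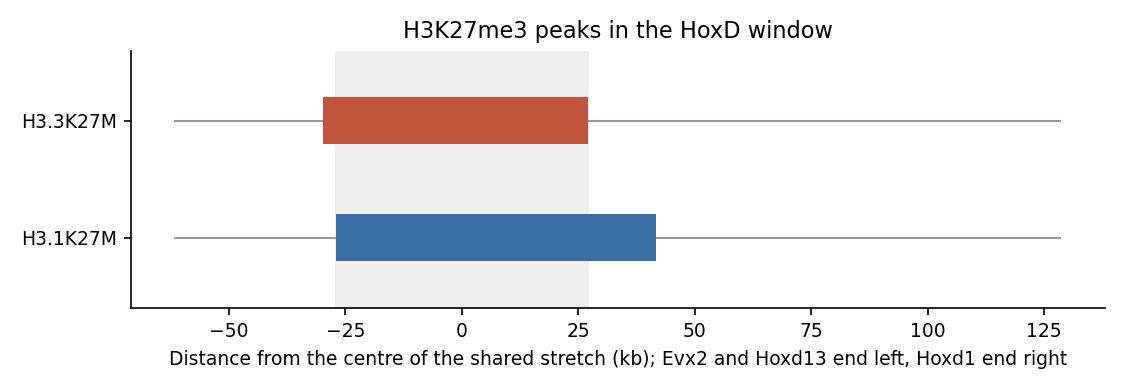
H3K27me3 peaks (bars) in the HoxD window (grey lines) of the H3.3K27M list above and the H3.1K27M list below, against the distance in kb from the centre of the stretch called in both, shaded grey. The peaks begin within 2.8 kb of each other on the left, while on the right the H3.1K27M peak ends 14.6 kb beyond the H3.3K27M peak.

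The edges of the domains lay closer together on the Evx2 side than on the Hoxd1 side. The shared core made up 95.1% of the H3.3K27M peak, against a median of 78.6% over all shared regions. It made up 78.8% of the H3.1K27M peak, against a median of 100%. As a share of the 71.6 kb covered in either list it was 75.7%, against a median of 72.4%.

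HoxD ran against the general direction of the width difference. Its H3.3K27M width was 0.83 times its H3.1K27M width (log2 ratio -0.27), so the H3.1K27M domain was 1.21 times as long. Over the 807 regions with 1 peak in each list the median log2 ratio was 0.33 (quartiles 0.05 and 0.66), in favour of H3.3K27M. The H3.1K27M peak was the longer one in 19.5% of these regions, so the direction alone is not rare. A log2 ratio as low as that of HoxD or lower was found in 89 regions (11.0%), HoxD included. With 1 list per mutant, the difference at HoxD has no replicate check.

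**Figure D3:**
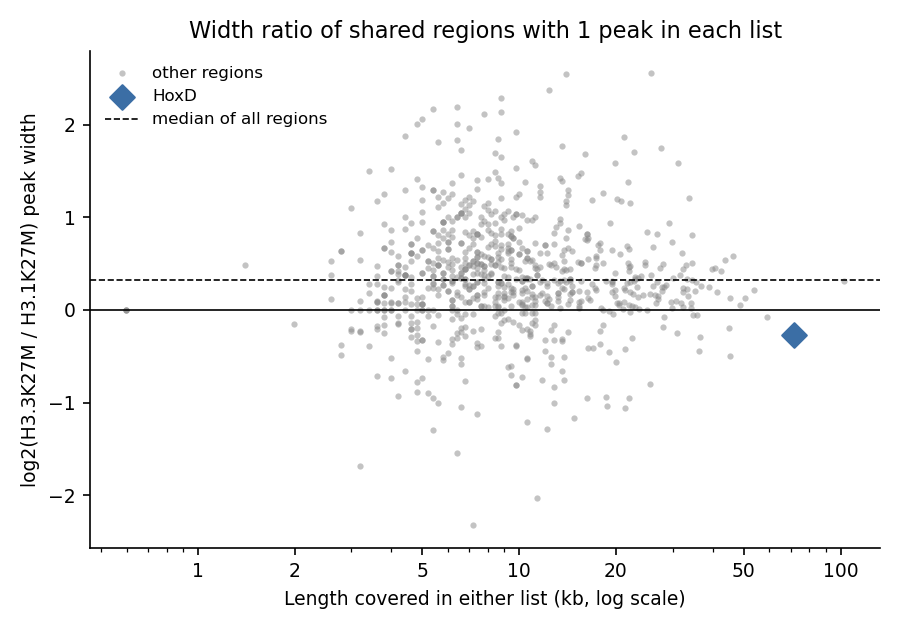
Log2 of peak width in H3.3K27M over H3.1K27M cells (vertical axis) against the length covered in either list in kb (horizontal axis, log scale) for the 807 shared regions with 1 peak in each list, 1 point per region. HoxD (diamond) lies below 0 at -0.27 and at 71.6 kb, while the median of all regions (dashed line) is 0.33.

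The right edge, on the Hoxd1 side, was where HoxD stood out. The H3.1K27M peak ended beyond the H3.3K27M peak on the right in 142 of the 807 regions (17.6%), by a median of 1 kb. At HoxD it did so by 14.6 kb, which is 73 steps of the 200 bp grid on which the peaks were called. No other of the 807 regions had an H3.1K27M excess as long at either edge. The next longest were 13.8 kb on the left of a chromosome 11 region (chr11:98158801-98203999) and 12.2 kb on the right of another chromosome 11 region (chr11:116774401-116799999). In the opposite direction, 3 regions had an H3.3K27M excess of at least 14.6 kb, all on the left, up to 19.4 kb on chromosome 10. HoxD is also a very long domain: as a share of the region, its H3.1K27M excess was 20.4%, and 76 regions (9.42%) had a share at least as high at either edge, 42 of them (5.20%) at the right edge, HoxD included. Measured this way the edge was less exceptional than in kb.

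At the left edge, on the Evx2 side, the H3.3K27M peak began 2.8 kb before the H3.1K27M peak. The median over the 807 regions was 0.8 kb in the same direction, and 104 regions (12.9%), HoxD included, had an offset at least as large. A stagger of this kind, with H3.3K27M beyond on the left and H3.1K27M beyond on the right, occurred in 69 regions (8.55%). The mirror stagger occurred in 67, so that 136 regions were staggered in either direction. H3.3K27M reached beyond at both edges in 495 regions and H3.1K27M in 53, and in 123 the peaks shared at least 1 edge position.

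**Figure D4:**
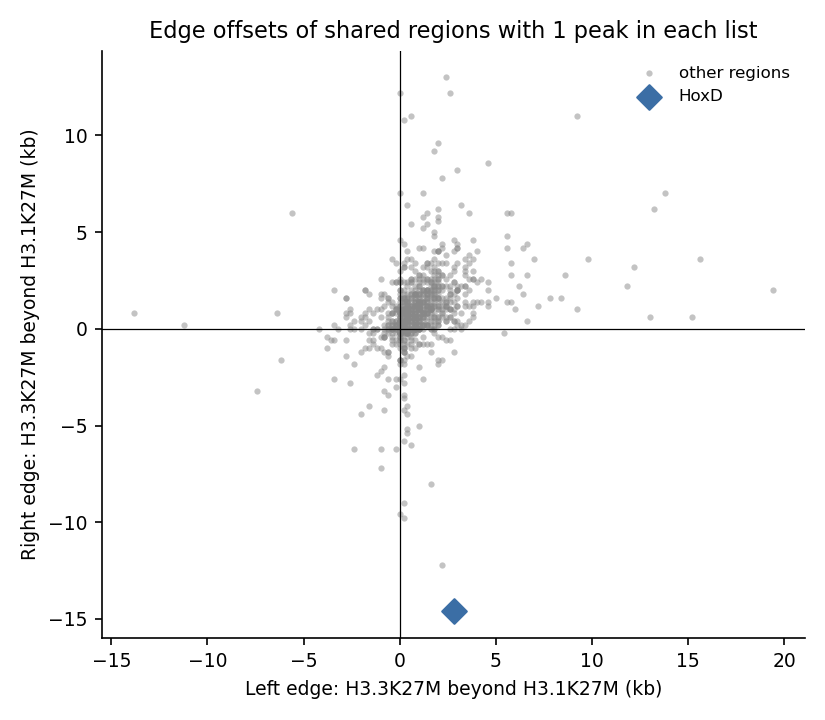
Distance by which the H3.3K27M peak reaches beyond the H3.1K27M peak at the left edge (horizontal axis, kb) and at the right edge (vertical axis, kb) for the 807 shared regions with 1 peak in each list; negative values mean that H3.1K27M reaches further. HoxD (diamond) lies at 2.8 kb and -14.6 kb, the lowest point at the right edge.

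HoxD was among the longest H3K27me3 domains of both mutants. By width its peak ranked 5 of 1192 in the H3.3K27M list and 2 of 1053 in the H3.1K27M list. It was 7.92 times the median peak width of 7.20 kb in H3.3K27M cells and 12.3 times the median of 5.6 kb in H3.1K27M cells. On chromosome 2 it was the longest peak in both lists: the next longest measured 41.4 kb in H3.3K27M cells and 36.2 kb in H3.1K27M cells. The single peak held 4.90% of the length called on chromosome 2 in H3.3K27M cells, where there were 116 peaks, and 6.92% in H3.1K27M cells, where there were 111.

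The 29 other shared regions of at least 35.8 kb, the length of HoxD divided by 2, were set beside it, with no gene names, since no mm9 annotation was used here. Of these, 18 had 1 unbroken peak in each list, as HoxD did, and the other 11 were broken up in 1 of the lists. The H3.3K27M list covered more in 21 of the 29 and the H3.1K27M list in 8, with log2 ratios between -0.76 and 0.87 and a median of 0.25. A lower ratio than that of HoxD was found in 4 regions: chr9:107270201-107314999 (-0.76), chr11:98158801-98203999 (-0.50), chr2:38190601-38226799 (-0.45) and chr2:165045201-165081599 (-0.29). HoxD, at 71.6 kb, was longer than all of them. The only longer shared region, on chromosome 15, had a positive ratio, with 102 kb in H3.3K27M cells and 82.2 kb in H3.1K27M cells.

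**Figure D5:**
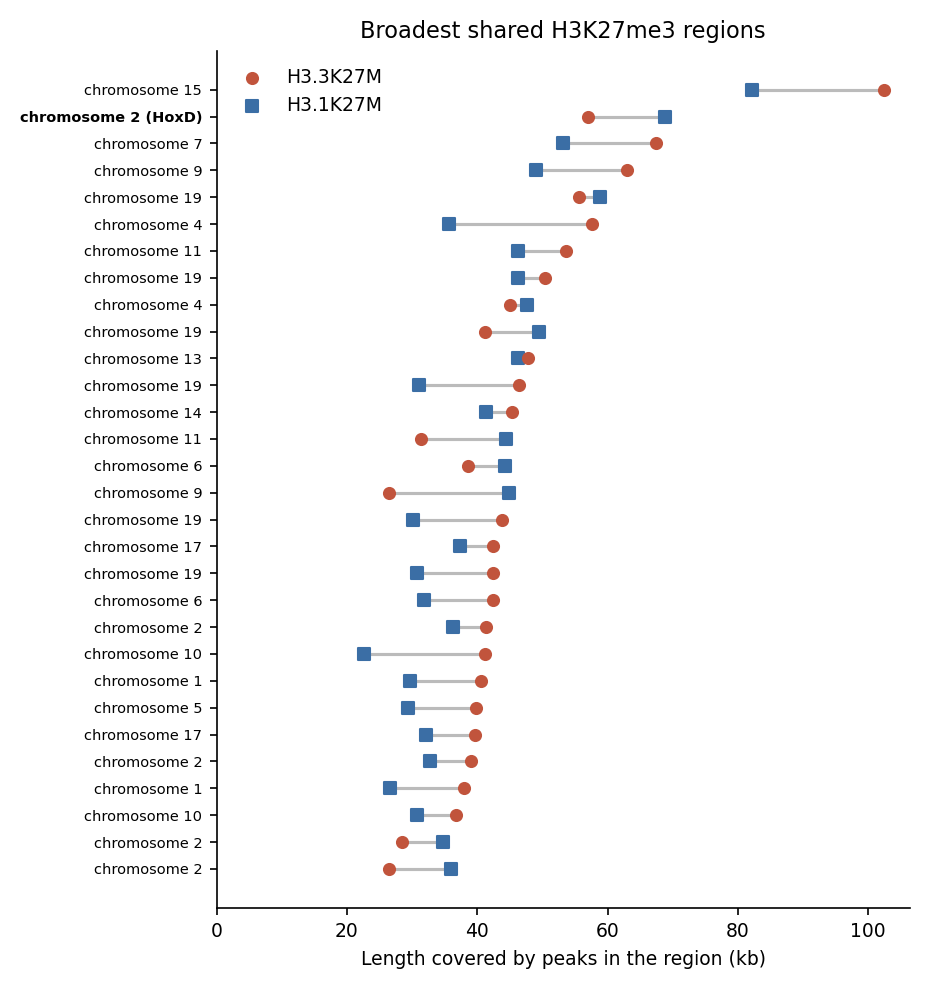
Length covered by H3K27me3 peaks (horizontal axis, kb) in H3.3K27M cells (circles) and H3.1K27M cells (squares) in the 30 shared regions of at least 35.8 kb, ordered from the longest at the top and labelled by chromosome. At HoxD the H3.1K27M square lies to the right (68.8 kb against a circle at 57.0 kb), while in 21 of the 29 other regions the circle does.

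The HoxD domain stood alone on its part of chromosome 2 in both mutants. In H3.3K27M cells the nearest other peak, of 2.40 kb, ended at 73616399, 0.865 Mb before the domain, and the next on the right began 3.11 Mb after it. In H3.1K27M cells the nearest peak, of 12.0 kb, ended at 73117999, 1.37 Mb before the domain, and the next on the right began 3.1 Mb after it. Nearest neighbours lay a median of 0.291 Mb apart in the H3.3K27M list and 0.237 Mb apart in the H3.1K27M list. Still, 24.8% of H3.3K27M peaks and 18.1% of H3.1K27M peaks had a nearest neighbour farther away than HoxD did. The peaks in both lists are numbered in order with some numbers unused, and the numbers directly before and after the HoxD peak were in use in both. No unused number therefore lay directly beside the HoxD peaks. What an unused number stands for is not stated. The H3.3K27M numbering thus has no gap at the 14.6 kb called in H3.1K27M cells alone. Whether a weaker H3.3K27M call was dropped there before numbering cannot be seen from it.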

How the data were processed

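The H3K27me3 samples of H3.3K27M and H3.1K27M cells were analysed, as the 1 peak list deposited for each mutant. Alignment to mm9 used Bowtie 1.0.0, and deepTools is also named, per the submitters' processing notes. Of the program that called peaks, its threshold, any input and any pooling of replicates, none is given in the sources used here. Widths of the peaks, in bp, are the authors' deposited values. All starts lie on a 200 bp grid. A lower threshold or a deeper library can lengthen a peak, and the labels give no spike-in.

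The genes and lists were chosen with earlier results of these data known. Positions were read as BED intervals and printed with the first base as 1. Peaks overlapping by 1 bp were shared, and overlapping peaks formed regions. All 10 genes of the cluster are named. Other regions are those at least as long as the HoxD region divided by 2, those with the longest edge offsets, which were added after their values were seen, and the nearest peaks. Interval code was checked on simulated data. Homeodomains were not compared, since no protein table was used here. Python 3.11.15, numpy 2.4.6, pandas 2.3.3, networkx 3.6.1 and matplotlib 3.10.9 were used.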

Additional observations from a re-analysis of the deposited data

How the results depend on the processing

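No paired analysis was possible because only 1 list is given per mutant, which also means that leaving out a replicate gave no value. Of 23 alternatives, 20 left the HoxD values as reported. They were whole peak widths, a window widened by 100 kb or narrowed by 20 kb on each side, peaks joined across gaps under 5 kb, a median-width minimum and a reciprocal overlap of 50%. Most of these could not have changed the values. Each list holds 1 peak that starts over 30 kb inside the window, at least 0.865 Mb from its neighbours and at least 7.92 times the median width. The count of 20 is therefore no measure of robustness. Merging moved the rank of the H3.1K27M peak to 3, since fragments elsewhere joined. Dividing by the ratio of the total covered lengths (1.36) moved the log2 width ratio from -0.27 to -0.71, and dividing by the median ratio of shared regions moved it to -0.60, by construction further in the same direction. The unknown depth limits every statement about an edge or an uncalled stretch.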

Other observations

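Chromosome 2 held other long regions with the HoxD pattern, a comparison chosen after the values were seen and not tested. Of its 5 shared regions of at least 35.8 kb, 3 were covered more in H3.1K27M cells, against 6 of 25 on the other chromosomes. In all 3 the H3.1K27M peak reached further on the right, by 14.6 kb at HoxD, 9.8 kb at chr2:38190601-38226799 and 8 kb at chr2:165045201-165081599. Among all 85 regions of chromosome 2 with 1 peak in each list, the H3.3K27M peak was the longer in 59 and the H3.1K27M peak in 23. The median log2 ratio was 0.28 on chromosome 2 and 0.33 over all such regions.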
